A study of Mus musculus with 6 samples.

Results

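The expression of 10 nuclear lamina and envelope genes was examined in satellite cells (SCs), the resident stem cells of skeletal muscle, with and without induced deletion of the NF-YA gene (Nfya). The genes were chosen by name: Lmna, Lmnb1, Lmnb2, Lbr, Emd, Tmpo, Sun1, Sun2, Syne1 and Syne2, which are 10 of the 35976 genes quantified, and all 10 passed the filter on low counts. NF-YA is the regulatory subunit of NF-Y, a transcription factor that binds the CCAAT box of promoters. There were 3 RNA-seq libraries from NF-YA cKO mice, which carry NF-YA fl/fl and Pax7-CreERT2, and 3 from control NF-YA fl/fl mice without Cre. Both genotypes carry the floxed alleles, and by the labels both received tamoxifen (20 mg/ml, the concentration of the solution) at an age of 5 to 7 weeks. The methods of the study give a somewhat different age range. Cre acts in cells that express Pax7, and SCs were enriched from hindlimb muscle by removing CD31, CD45, CD11b and Sca1 cells and were then cultured in growth medium before RNA extraction. The labels number the libraries of each genotype and do not say whether each is a separate mouse, so the p-values measure the spread between these libraries, which may be technical.

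The nuclear lamina is a meshwork of lamins under the inner nuclear membrane. A-type lamins (lamin A and C, from Lmna) are abundant in stiff and differentiated tissues such as muscle, and B-type lamins (Lmnb1, Lmnb2) stay attached to the membrane by a lipid anchor. LBR and the LEM-domain proteins emerin (Emd) and LAP2 (Tmpo) tether chromatin to the envelope, while SUN proteins in the inner membrane hold nesprins (Syne1, Syne2) in the outer membrane and so link the nucleus to the cytoskeleton. Mutations in LMNA, EMD and SYNE1 cause muscle disease in humans.

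The CCAAT box was searched on both strands (CCAAT and its reverse complement ATTGG) in promoter windows of RefSeq (GRCm38.p6), from 250 bases before to 50 bases after each start site. A window was held for 9 of the 10 genes, and at least 1 window of 6 of these 9 genes (Emd, Lbr, Lmna, Sun1, Sun2 and Tmpo) held the letters. For comparison, 37.4% of 32851 windows of all genes held them, and 41.1% of 27025 genes did so in at least 1 window, while 7 of the 15 windows of the 10 genes did. Lmnb2, Syne1 and Syne2 had no match in their windows, which says only that these letters are not there. The windows of the 4 genes with a match and the largest change in expression are shown, 5′ to 3′ along the gene, with the motif in capitals.

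The Lbr window is chr1:181842352-181842651 on the minus strand, the Tmpo window chr10:91171570-91171869 on the minus strand, the Sun1 window chr5:139200387-139200686 on the plus strand and the Emd window chrX:74254437-74254736 on the plus strand.
Lbr: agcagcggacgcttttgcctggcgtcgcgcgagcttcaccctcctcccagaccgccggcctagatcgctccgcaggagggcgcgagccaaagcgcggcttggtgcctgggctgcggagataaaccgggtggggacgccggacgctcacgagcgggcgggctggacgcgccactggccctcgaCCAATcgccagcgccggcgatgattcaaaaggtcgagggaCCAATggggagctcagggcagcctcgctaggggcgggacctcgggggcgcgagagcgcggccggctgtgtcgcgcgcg
Tmpo: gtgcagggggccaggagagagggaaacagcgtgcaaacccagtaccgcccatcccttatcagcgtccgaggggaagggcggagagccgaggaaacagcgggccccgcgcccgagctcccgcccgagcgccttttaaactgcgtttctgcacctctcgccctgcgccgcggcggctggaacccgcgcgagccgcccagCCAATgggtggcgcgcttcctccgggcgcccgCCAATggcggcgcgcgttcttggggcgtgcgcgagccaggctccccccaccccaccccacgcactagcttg
Sun1: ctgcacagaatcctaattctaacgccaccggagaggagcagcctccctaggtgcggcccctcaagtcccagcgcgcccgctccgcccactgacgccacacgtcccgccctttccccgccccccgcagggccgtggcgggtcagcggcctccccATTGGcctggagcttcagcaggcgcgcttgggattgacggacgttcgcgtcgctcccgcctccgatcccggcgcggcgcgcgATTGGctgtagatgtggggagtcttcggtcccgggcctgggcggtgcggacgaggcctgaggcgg
Emd: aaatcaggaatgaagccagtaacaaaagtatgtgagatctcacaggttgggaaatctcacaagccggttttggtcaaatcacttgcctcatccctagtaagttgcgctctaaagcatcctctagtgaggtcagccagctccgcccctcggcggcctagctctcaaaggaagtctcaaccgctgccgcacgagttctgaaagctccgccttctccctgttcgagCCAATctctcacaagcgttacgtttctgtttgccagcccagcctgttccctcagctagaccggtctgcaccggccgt

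The matches started 68 and 28 bases before the start site of Lbr, 53 and 21 before that of Tmpo, 97 and 15 before that of Sun1 and 27 before that of Emd. Those of Sun1 read ATTGG along the gene, and the others read CCAAT. Lbr, Tmpo and Emd rose in NF-YA cKO and Sun1 fell. Of the genes without a match, Syne2 rose and Syne1 fell. The part of the letters in these changes was not tested. Sun2, with a match 85 and another 41 bases before its start, and Lmna, with a match 131 bases before the start in 1 of its 2 windows, did not pass the test. The other Sun1 window held a match 209 bases before its start.

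The libraries held 26936230 to 41118984 expected counts. The entry for the deleted Nfya allele held 22.3% to 34.2% of Nfya counts in NF-YA cKO and none in the controls, and intact Nfya transcripts remained in all 6. Nfya as a whole, with the deleted entry included, did not pass the test (log2 fold change -0.06, edgeR, FDR = 0.814). Xist was at 836 to 852 CPM (counts scaled to library size with TMM factors) in NF-YA cKO and at most 0.475 CPM in the controls, and Ddx3y at most 0.0957 CPM against 80.9 to 88.6 CPM, so that this sex-linked pattern and the genotype cannot be told apart. The methods of the study describe male mice, which the Xist and Ddx3y levels of the NF-YA cKO libraries go against. All 7 SC and myoblast markers were detected in every library, with sums of 1450 to 1630 CPM against 2223 to 3878 CPM. Among them Des (log2 fold change -2.09), Cdh15 (-1.78) and Itga7 (-1.25) fell, Pax7 (0.94) and Vcam1 (0.86) rose, and Myf5 and Myod1 did not pass the test. The 9 markers of differentiated muscle all fell, with summed levels of 635 to 1410 CPM against 42650 to 51410 CPM, and 7 of 8 proliferation markers rose, with sums of 1916 to 2035 CPM against 694 to 1265 CPM. All 7 macrophage markers rose, with sums of 134 to 266 CPM against 4.55 to 11.4 CPM, and in 1 NF-YA fl/fl library Ptprc was at 0, while the 4 Schwann cell markers also rose (21.1 to 27.5 against 7.29 to 11.5 CPM). Of 5 endothelial markers Kdr and Tek rose (sums 13.1 to 18.03 against 4.14 to 8.06 CPM), of 5 fibro-adipogenic markers Dcn rose (1297 to 1633 against 386 to 1612 CPM), and of 4 pericyte and smooth muscle markers Rgs5 fell (213 to 307 against 153 to 559 CPM). In bulk RNA, fewer cells of a type and less RNA per cell cannot be told apart, and the part of these differences in the results that follow was not tested.

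Of the 10 genes, 5 rose in NF-YA cKO (Lbr, Lmnb1, Syne2, Tmpo and Emd), 2 fell (Syne1 and Sun1) and 3 did neither (Lmna, Lmnb2 and Sun2), with edgeR's quasi-likelihood test at an FDR under 0.05. The background was wide, since 19.7% of the 17348 tested genes rose and 18.9% fell. At the study's thresholds (FDR under 0.01, with a log2 change beyond 1 or -1), Lbr and Lmnb1 were higher, against 4.65% of genes, and Syne1 was lower, against 7.67%. The median log2 fold change of the 10 genes was 0.37 and that of all tested genes -0.02.

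**Figure D1:**
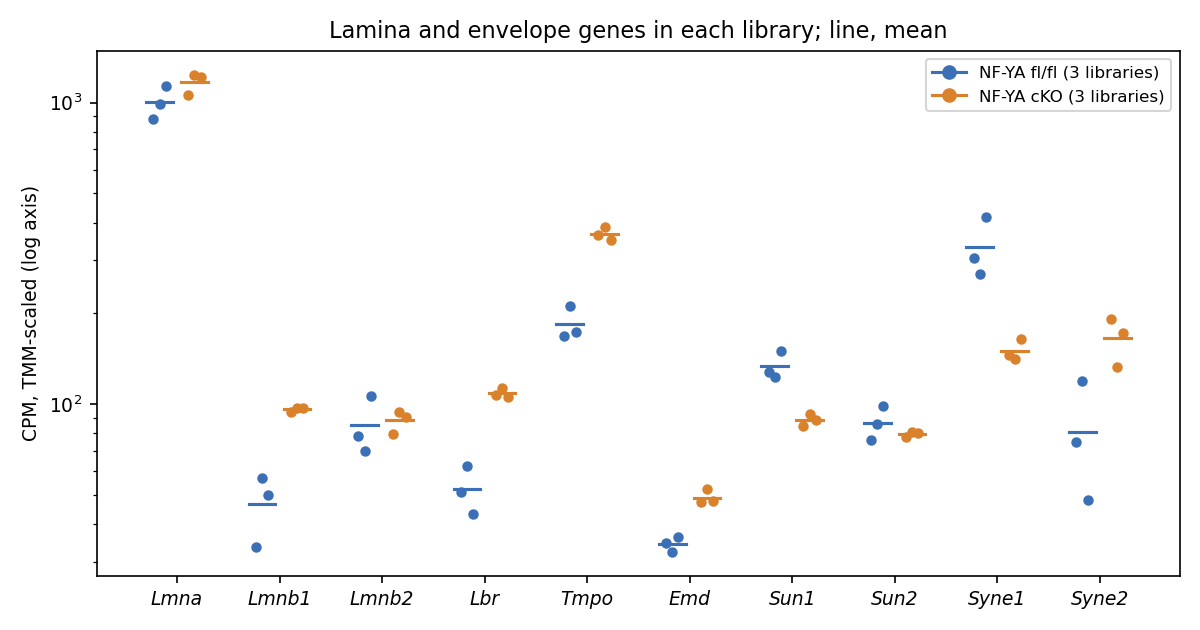
CPM on a log axis of each gene (x axis) in the 3 NF-YA fl/fl (blue) and 3 NF-YA cKO (orange) libraries, with the mean as a line. The genotypes do not overlap for Lmnb1, Lbr, Tmpo, Emd, Sun1, Syne1 and Syne2, and overlap for Lmna, Lmnb2 and Sun2. The share of all tested genes without overlap was not counted, so lack of overlap is a description only.

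**Figure D2:**
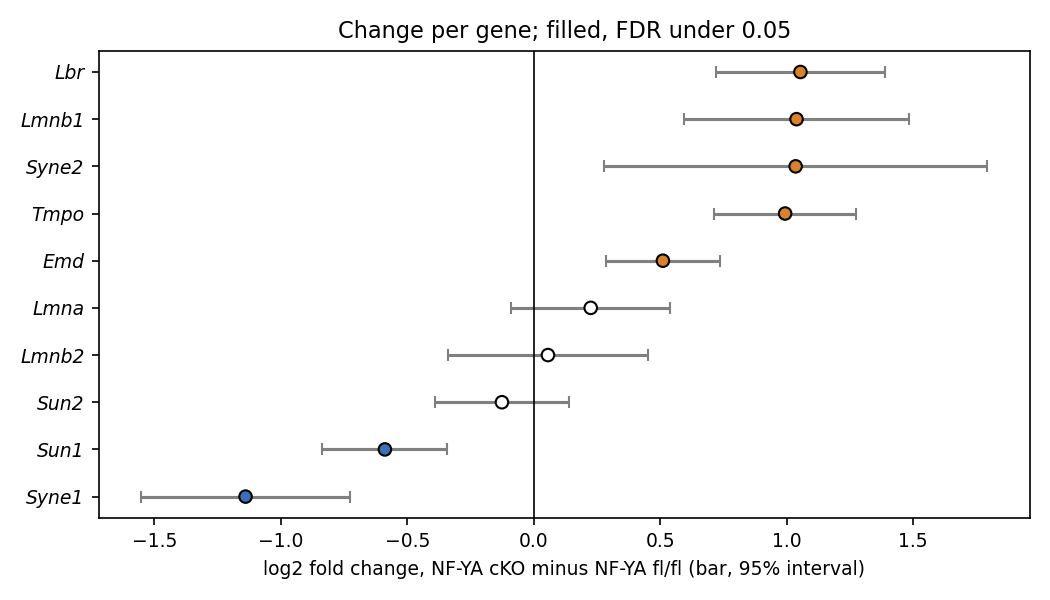
Log2 fold change of NF-YA cKO minus NF-YA fl/fl for each gene, with its 95% interval as a bar, orange for higher and blue for lower at an FDR under 0.05 and open otherwise. Syne1 lies lowest at -1.14 and Lbr highest at 1.05, and the widest interval is that of Syne2.

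Levels were ranked by TPM, which corrects for length. Lmna was by far the most abundant of the 10 in both genotypes (503 ± 28.3 TPM in NF-YA cKO and 462 ± 80.4 TPM in NF-YA fl/fl, SD, n = 3), followed by Tmpo (116 ± 6.31 and 63.3 ± 21.2 TPM). Syne2 was lowest in both (8.27 ± 2.12 and 4.50 ± 2.78 TPM). Between these, the order differed by genotype. In NF-YA fl/fl, Sun1 (38.9 TPM), Syne1 (32.4), Lmnb2 (29.4), Emd (27.3), Sun2 (27.2), Lmnb1 (20.1) and Lbr (18.02) followed Tmpo, and each of these overlapped with its neighbour over the 3 libraries. In NF-YA cKO, Lmnb1 (38.3), Emd (36.5), Lbr (34.2), Lmnb2 (29.3), Sun1 (24.0), Sun2 (23.4) and Syne1 (10.2) followed, and the overlapping neighbours were Lmnb1 with Emd, Emd with Lbr, Sun1 with Sun2, and Syne1 with Syne2.

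Among the lamins, Lmnb1 rose and Lmna and Lmnb2 did not pass the test. Lmnb1, on chromosome 18 (56707813 to 56753424, GRCm38), encodes lamin B1, the lamin whose loss is known from senescent cells. It was at 94.0, 97.3 and 97.2 CPM in the NF-YA cKO libraries and at 33.5, 56.8 and 49.97 CPM in the controls. No control reached the lowest NF-YA cKO library, and the log2 fold change was 1.04 ± 0.19 (SE; edgeR, FDR = 0.00594). In the controls the spread was wider than in NF-YA cKO.

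Lmna (chromosome 3, 88481148 to 88509932) was at 1064, 1239 and 1215 CPM in NF-YA cKO and at 883, 987 and 1139 CPM in the controls. The genotypes overlapped, with a log2 fold change of 0.23 (95% interval -0.09 to 0.54; edgeR, FDR = 0.218), although without NF-YA fl/fl replicate 3 it was 0.32 (FDR = 0.0410). Lmnb2 (chromosome 10, 80901363 to 80918245) was at 79.8, 94.2 and 91.0 CPM against 78.4, 70.0 and 107 CPM. Its log2 fold change was 0.06 (95% interval -0.34 to 0.45; FDR = 0.813), and its sign depended on the processing.

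The balance of the lamins was described by the share of each in the TPM of the 3 lamin genes. Lmna made up 87.8%, 88.3% and 88.3% in NF-YA cKO and 90.8%, 90.4% and 89.8% in NF-YA fl/fl. All NF-YA cKO libraries lay below all controls, with a difference of -2.16 percentage points (two-sided p = 0.1 by exact permutation, the lowest that 3 against 3 libraries allow). The share of Lmnb1 was 6.71% ± 0.352 in NF-YA cKO and 3.85% ± 0.816 in NF-YA fl/fl (SD, n = 3). The ratio of Lmnb1 to Lmnb2 TPM was 1.41, 1.24 and 1.28 in NF-YA cKO and 0.513, 0.974 and 0.562 in NF-YA fl/fl, so lamin B1 transcripts outnumbered those of lamin B2 in NF-YA cKO only.

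The 3 genes whose products include chromatin tethers of the envelope, Lbr, Tmpo and Emd, all rose. Lbr (chromosome 1, 181815315 to 181842401) encodes the lamin B receptor, which binds heterochromatin and is also a sterol reductase. It was at 107, 114 and 106 CPM in NF-YA cKO and at 51.3, 62.5 and 43.4 CPM in the controls. The groups stood well apart, with a log2 fold change of 1.05 ± 0.14 (SE; edgeR, FDR = 0.00208).

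Tmpo (chromosome 10, 91147571 to 91181752) encodes the LAP2 proteins. It was at 365, 388 and 351 CPM in NF-YA cKO and at 168, 212 and 173 CPM in the controls. Again no control reached an NF-YA cKO library, and the log2 fold change was 0.99 ± 0.12 (SE; edgeR, FDR = 0.00143).

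Emd (chromosome X, 74254674 to 74261563) encodes emerin, the protein lost in X-linked Emery-Dreifuss muscular dystrophy. It was at 47.2, 52.3 and 47.6 CPM in NF-YA cKO and at 34.5, 32.4 and 36.3 CPM in the controls. The difference was smaller (log2 fold change 0.51 ± 0.10, SE; edgeR, FDR = 0.00673) with no overlap, and on log2(TPM + 1) with limma it was 0.42 (FDR = 0.0626). The gene is X-linked, so the sex-linked pattern above applies to it directly, and the part of that pattern in its difference was not tested.

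Of the SUN and nesprin genes, Syne1 and Sun1 fell, Syne2 rose in a call that many alternatives lost, and Sun2 did not pass the test. Syne1 (chromosome 10, 5020192 to 5550692), which encodes nesprin-1, was at 146, 141 and 164 CPM in NF-YA cKO and at 306, 269 and 417 CPM in the controls. Every NF-YA cKO library was lower, with a log2 fold change of -1.14 ± 0.17 (SE; edgeR, FDR = 0.00321). On log2(TPM + 1), which corrects for transcript length, limma gave -1.57 (FDR = 0.00139).

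Syne2 (chromosome 12, 75818318 to 76110928) encodes nesprin-2, and was at 192, 133 and 172 CPM in NF-YA cKO and at 75.0, 119 and 48.2 CPM in the controls. The groups did not overlap but the gap between the closest libraries was small, and the log2 fold change was 1.04 ± 0.32 (SE; edgeR, FDR = 0.0406). By TPM the groups overlapped, at 10.1, 5.94 and 8.77 against 3.88, 7.54 and 2.09. The call was lost with limma (FDR = 0.147 on log2(TPM + 1)) and without any single NF-YA cKO library or NF-YA fl/fl replicate 1 (FDR 0.0761 to 0.131).

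Sun1 (chromosome 5, 139200564 to 139249839) was at 84.8, 92.6 and 88.7 CPM in NF-YA cKO and at 128, 123 and 150 CPM in the controls. Its levels did not overlap between genotypes, with a log2 fold change of -0.59 ± 0.10 (SE; edgeR, FDR = 0.00553). Sun2 (chromosome 15, 79724068 to 79742536), its paralog with a similar function, was at 77.9, 80.8 and 80.2 CPM against 76.3, 85.7 and 98.6 CPM. The groups overlapped and the log2 fold change was -0.13 (95% interval -0.39 to 0.14; FDR = 0.402). The ratio of Sun1 to Sun2 TPM was 1.001, 1.05 and 1.02 in NF-YA cKO and 1.55, 1.34 and 1.42 in NF-YA fl/fl, and that of Syne1 to Syne2 was 0.972, 1.48 and 1.37 against 7.57, 3.81 and 18.7.

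The transcripts of Lmna, Tmpo, Syne1 and Syne2, 35 in all, were examined next. RSEM divides reads among transcripts that share sequence, so these levels are estimates. Across all tested transcripts 4.78% rose and 4.53% fell at an FDR under 0.05. Of the 22 that passed the filter, 3 rose (with XM_006513590.3 of Tmpo among them, at 2.11 to 2.70 TPM against 0.77 to 1.18 TPM) and 3 fell. These counts changed when single libraries were left out, and the matching counts over all tested transcripts were not taken. Leaving out any one NF-YA cKO library left 1 of these transcripts that rose. Leaving out NF-YA cKO replicate 1 or 3 left none of them that fell, and leaving out NF-YA cKO replicate 2 or NF-YA fl/fl replicate 1 left 1. In the gene fits, which are no background for transcripts, leaving out any one NF-YA cKO library lowered the number of all tested genes that rose from 3418 to between 1739 and 2015.

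Lmna was carried by a pair of transcripts. NM_001002011.3 (3173 nt; its annotated coding sequence gives 665 residues, lamin A before processing) was at 250, 265 and 289 TPM in NF-YA cKO and at 201, 268 and 235 TPM in NF-YA fl/fl. NM_001111102.2 (2066 nt; 574 residues, lamin C) was at 229, 193 and 236 TPM against 191, 285 and 177 TPM. The groups overlapped for both, neither passed the test, and the ratio of the first to the second was 1.23 ± 0.142 in NF-YA cKO and 1.11 ± 0.1997 in NF-YA fl/fl (SD, n = 3; exact permutation test, two-sided, p = 0.4).

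For Tmpo, NM_011605.3 (3813 nt; 693 residues, the size of LAP2 alpha, the form without a membrane anchor) was at 37.4, 35.7 and 37.1 TPM in NF-YA cKO and at 19.4, 26.4 and 19.0 TPM in NF-YA fl/fl. It rose without overlap, with a log2 fold change of 0.89 ± 0.10 (SE; edgeR, FDR = 0.00825). NM_001080129.2 (3570 nt; 452 residues, the size of the membrane-bound LAP2 beta) was at 33.7, 31.1 and 34.0 TPM against 11.1, 12.4 and 18.3 TPM. These groups did not overlap either, but the transcript missed the threshold (log2 fold change 1.304 ± 0.30, SE; FDR = 0.0550). NM_001283048.1 (3253 nt) was at 42.8, 35.4 and 33.8 TPM against 16.5, 35.0 and 6.37 TPM, a log2 fold change of 1.18 (FDR = 0.199). The LAP2 alpha transcript made up 31.7% ± 1.16 of Tmpo TPM in NF-YA cKO and 35.2% ± 5.19 in NF-YA fl/fl (SD, n = 3; exact permutation test, two-sided, p = 0.4, 0.5 after adjustment over 3 genes; 3 against 3 libraries cannot go below 0.1). The shares of 2 minor transcripts did not overlap between genotypes, NM_001080131.2 at 1.001% against 3.36% and XM_006513590.3 at 2.03% against 1.56%, each with the smallest possible p of 0.1 in the exact permutation test. Some minor transcripts of Lmna and Syne1 also had shares without overlap. How often this occurs over all transcripts was not counted, so it is a description only.

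Among the 3 Syne1 transcripts that fell, the shortest had the largest fitted change. NM_022027.2 (4830 nt) starts near the 3′ end of the gene, at position 5069063 in the annotation, and encodes a short form with the membrane-anchoring end of nesprin-1, of the kind known in muscle as nesprin-1 alpha. It was at 1.72, 2.25 and 3.63 TPM in NF-YA cKO and at 15.3, 12.2 and 24.2 TPM in NF-YA fl/fl. Its levels stood apart in the genotypes, with a log2 fold change of -2.73 ± 0.49 (SE; edgeR, FDR = 0.0274).

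The other Syne1 transcripts that fell were longer, and differences between transcripts were compared only through their shares. NM_001079686.1 (10876 nt) was at 3.54, 3.07 and 3.63 TPM against 6.59, 7.92 and 7.68 TPM (log2 fold change -1.02 ± 0.15, SE; edgeR, FDR = 0.0174). XM_011243096.2 (26983 nt) was at 3.66, 3.12 and 4.03 TPM against 6.85, 7.17 and 6.12 TPM (log2 fold change -0.79 ± 0.11, SE; edgeR, FDR = 0.0154). For both, each NF-YA cKO value lay under each control value. The 20 transcripts from 19462 to 29814 nt, a class set after their values were seen, summed to 4.13 ± 0.615 TPM and 7.68 ± 0.610 TPM (SD, n = 3). Most of these sums was XM_011243096.2 itself, with means of 3.60 and 6.71 TPM, so they add little to its values. Another of the class (XM_011243091.2), at most 0.16 TPM, passed as higher and was at 0 in all NF-YA fl/fl libraries.

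The share of NM_022027.2 in Syne1 TPM was 17.5%, 25.6% and 30.1% in NF-YA cKO and 52.1%, 42.6% and 61.9% in NF-YA fl/fl. All NF-YA cKO libraries were below all controls, by -27.8 percentage points in the mean (two-sided p = 0.1 by exact permutation, the lowest possible, and 0.3 after adjustment over 3 genes). As a share of expected counts, which grow with length, the difference was -14.5 percentage points. Syne2 had a single transcript, which at transcript level did not pass the test (FDR = 0.138).

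**Figure D3:**
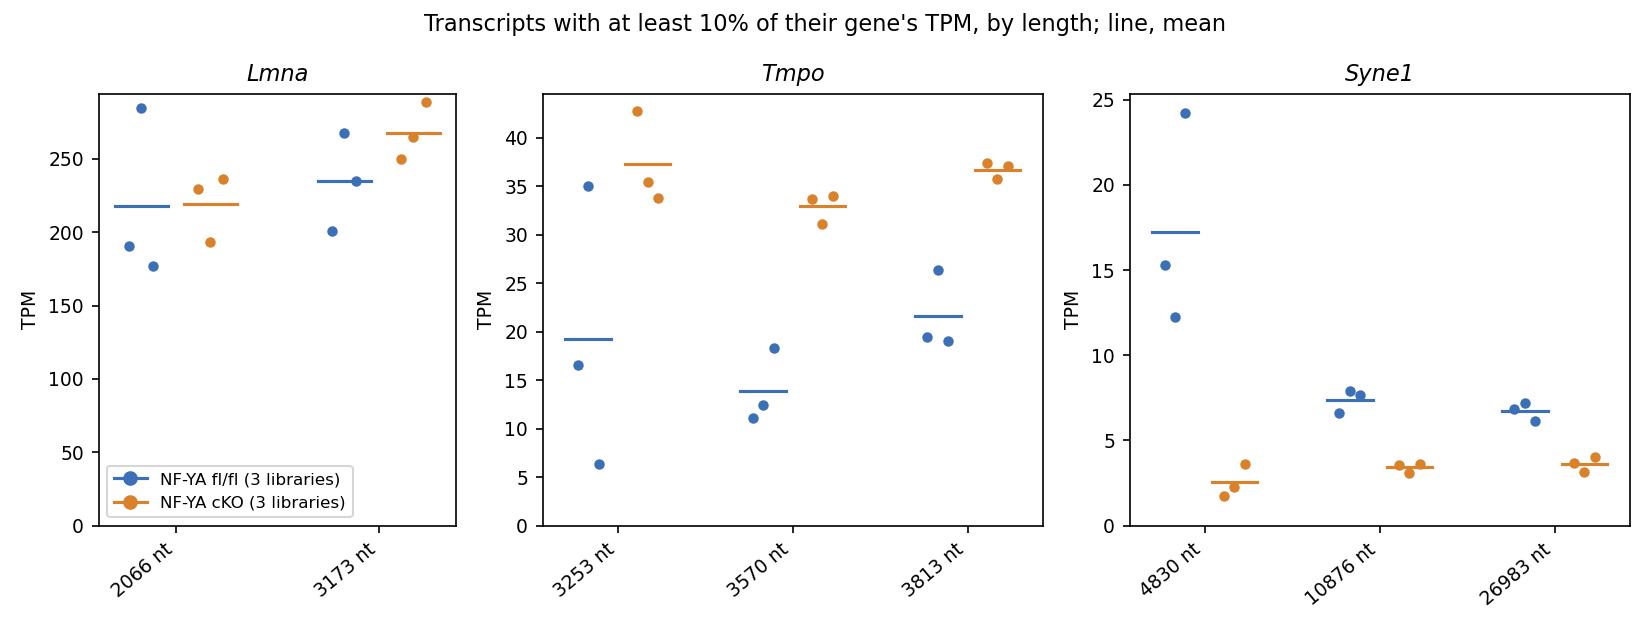
TPM of the transcripts that hold at least 10% of the TPM of Lmna, Tmpo or Syne1, by transcript length, in the 3 NF-YA fl/fl (blue) and 3 NF-YA cKO (orange) libraries, with the mean as a line. The Syne1 transcript of 4830 nt lies at 12.2 to 24.2 TPM in NF-YA fl/fl and at most at 3.63 TPM in NF-YA cKO.

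Other genes of the nuclear envelope were mixed. Of 35 listed, 32 were tested, 6 rose and 4 fell, with a median log2 fold change of 0.13, against 19.7% of all tested genes that rose and 18.9% that fell. These shares are near or below the background. Leaving out any one NF-YA cKO library left 3 that rose, while the genes that rose among all tested went from 3418 to between 1739 and 2015. The genes that rose were Vrk1, a kinase of BAF (log2 fold change 1.13), Banf1, which encodes BAF, the DNA-binding partner of LEM-domain proteins (0.98), Nrm (0.88), Vrk2 (0.73), and Rce1 (0.45) and Zmpste24 (0.33), which process farnesylated proteins such as prelamin A. Banf1 was at 94.1, 101 and 98.8 CPM against 45.9, 46.0 and 57.3 CPM. The genes that fell were Tmem38a (-4.03), Plpp7 (-3.28) and AI464131 (-3.23), known as muscle-enriched envelope proteins, and Plec (-0.94), the cytoskeletal linker plectin.

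Tmem38a was at 5.58, 5.31 and 7.38 CPM in NF-YA cKO and at 125, 82.2 and 91.7 CPM in the controls. These levels moved with the markers of differentiated muscle given above, and the part of those in them was not tested. Lemd2 and Lemd3, the other LEM-domain genes of the inner membrane, had log2 fold changes of -0.16 and -0.10 and did not pass the test.

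Nucleoporins, the subunits of the nuclear pore, moved one way among those that passed. Of 31 tested, 20 rose and 0 fell (edgeR; 0 also at an unadjusted p under 0.05 and by DESeq2), against 19.7% and 18.9% of all tested genes. Without NF-YA cKO replicate 1 the count that rose was 13, with 1930 among all tested genes in place of 3418, and without replicate 2 it was 12, with 1739. Across the 31, the median log2 fold change was 0.36. The largest changes were in Nup37 (1.19), Ndc1 (1.18), a membrane anchor of the pore, and Aaas (1.02). Nup37 was at 27.5, 26.4 and 27.0 CPM in NF-YA cKO and at 13.6, 12.5 and 9.19 CPM in the controls.

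**Figure D4:**
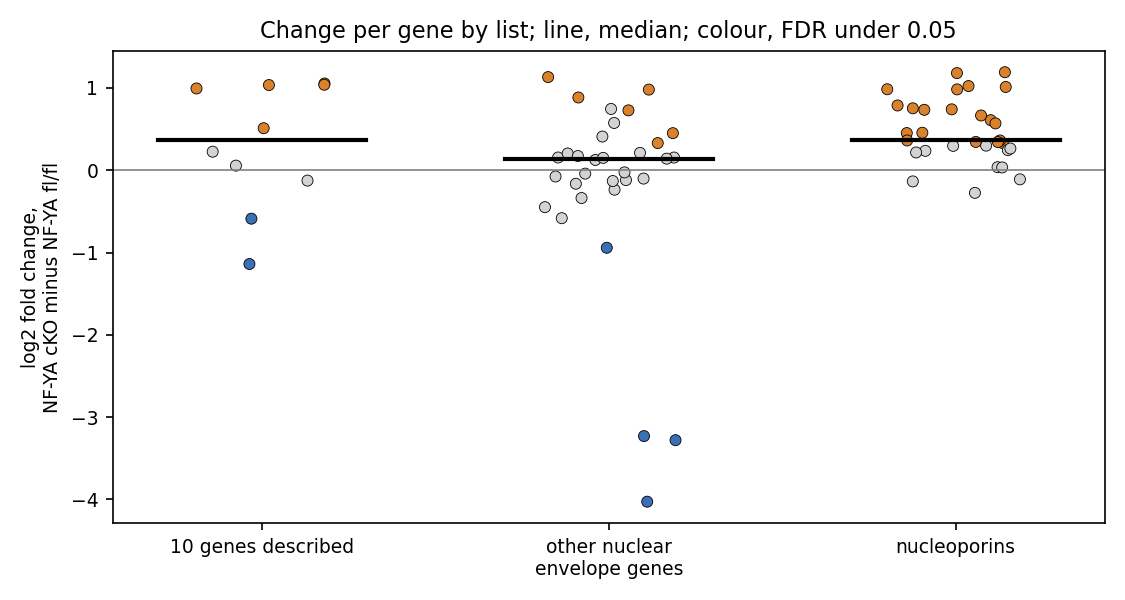
Log2 fold change of each tested gene in 3 lists (x axis), with the median as a line, orange for higher and blue for lower at an FDR under 0.05 and grey otherwise. The medians are 0.37, 0.13 and 0.36, and the 3 lowest points are Tmem38a, Plpp7 and AI464131.

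The genes with the most similar pattern were found by Pearson correlation of log2(CPM + 1) over the 6 libraries among 9456 genes of at least 10 CPM, as a description, since the libraries fall into the genotypes. For Lmna they were Sf3a1 (r = 0.983), Nectin1 (0.980) and Kctd18 (0.980). For Lmnb1 they were Cpt1a (0.9996), Rrm2 (0.998) and Zbtb2 (0.998). For Syne1 they were Tsc1 (0.999), 2310022B05Rik (0.999) and Sema6a (0.999).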

How the data were processed

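SC RNA-seq of 3 libraries per genotype was analyzed. The authors mapped reads with Bowtie2 to mm10 transcripts and ran RSEM, and the deposited values are expected counts, not normalized, and TPM, scaled by the authors' software to effective length. The percent of a gene's TPM per transcript was also deposited by the authors, and was recomputed here from TPM. RSEM divides shared reads, so transcripts and paralogs are estimates.

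Expected counts were rounded, and genes above 10 counts in 2 or more libraries (17348) were compared by edgeR 4.0.16 (R 4.3.3; TMM, quasi-likelihood test of genotype without covariates, Benjamini-Hochberg FDR under 0.05). The study used DESeq2. Transcripts were tested likewise (45367). Shares were compared with exact permutation tests. Both fits were tested on simulated data. The transcript fit recovered large differences there, placed only in abundant transcripts with a low spread between libraries, but few of the smaller ones tried first. A transcript that did not pass is therefore not shown to be unchanged. Alternatives were DESeq2 1.42.0, its size factors, no filter, filterByExpr, limma 3.58.1 on log2(TPM + 1) and log2(TPM + 0.1), unrounded counts, a replicate block, and leaving out each library.

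With 26936230 to 41118984 counts per library, 3 counts are 0.0730 to 0.111 CPM, and the spread between libraries limits precision. The members, lists and tests were chosen with earlier results of these data known. Named were all members, the listed genes with the largest changes at a mean of at least 5 TPM (up to 6 per direction, 3 for nucleoporins), and transcripts with at least 10% of their gene's TPM. Lemd2, Lemd3, NM_001080131.2, XM_006513590.3 and XM_011243091.2 are exceptions, picked once their values were known. RefSeq held no promoter window for Lmnb1 in the table used. Plots were drawn with matplotlib 3.10.9.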

Additional observations from a re-analysis of the deposited data

How the results depend on the processing

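Over 14 alternatives to each of the 10 genes' log2 fold changes, 125 of 140 kept their direction and side of the threshold. Lbr, Lmnb1, Tmpo, Syne1 and Sun1 did so in all 14. Lmnb2 turned to -0.0043 with limma on log2(TPM + 1) and -0.0044 on log2(TPM + 0.1), and leaving out single libraries gave -0.0749 to 0.2477. With limma, 3 of the 10 genes were higher on either TPM scale. On log2(TPM + 1), 2 other nuclear envelope genes and 9 nucleoporins were higher, with 1547 among all tested genes in place of 3418. On log2(TPM + 0.1), 1623 of all tested genes were higher. At the study's thresholds 2 of the 10 genes were higher and 1 lower, against 4.65% and 7.67% of all tested genes. At the same thresholds 0 member transcripts were higher and 0 lower. DESeq2 called 6 member transcripts higher. For the transcript counts of this section, the matching counts over all tested transcripts were not taken, so they are not results about these transcripts in particular. Without single libraries, other nuclear envelope genes higher were 3 to 8, nucleoporins higher 12 to 24, member transcripts higher 1 to 4 and lower 0 to 3. In the same gene fits, the number higher among all tested genes ran from 1739 to 4456. The cause was not tested. The deviations of same-numbered libraries had correlations of 0.224, -0.116 and 0.052, and those of the other pairs ran from -0.194 to 0.172. With 3 libraries per genotype, these values cannot show whether the numbers pair the samples. With the replicate block in edgeR, 4 of the 10 genes were higher and 2 lower, with 2743 and 2604 among all 17348 tested genes. Syne2 was no longer called (edgeR, FDR = 0.0534). In the edgeR transcript fit with the block, 0 member transcripts were higher and 0 lower (7 and 3 at an unadjusted p under 0.05). For shares, an exact test over 3 same-numbered pairs cannot go below 0.25. Of the share differences, the direction was the same in every alternative run, but part of this was fixed in advance. The block leaves a difference of means as it is. For the Lmna share of the lamins and the NM_022027.2 share, whose groups do not overlap, leaving out a library cannot reverse it.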
